A study of Homo sapiens with 3 samples.

Results

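The genes described here are 10 genes of MHC antigen presentation: HLA-B, HLA-C, HLA-E, HLA-F, B2M, TAP1, TAP2, TAPBP, PSMB9 and CD74. Every probe set that the platform annotation gives to 1 of these genes was taken, which made 23 of the 22283 probe sets on the array. Transcript levels were measured in CAL 27, an established cell line from a poorly differentiated squamous cell carcinoma of the tongue, on 3 Affymetrix arrays, 1 for each stable transfectant. The first array held cells transfected with nm23-H1 fused to EGFP, the green fluorescent protein, the second cells transfected with nm23-H2 in the pEGFPC1 vector, and the third cells with the empty vector, which also make the fluorescent protein. According to the series' design, the nm23-H1 and vector RNA came from transfected clones, and whether the nm23-H2 cells were a clone is not given in the sources used here. Nm23-H1 and Nm23-H2 are nucleoside diphosphate kinases, and the study's title asks for downstream targets of Nm23-H1.

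Each group was a single array, so differences are given as values without p-values. Each construct coincided with 1 transfected line and 1 array, and these cannot be told apart. The NME1 probe set, which measures nm23-H1 RNA, gave 2379 signal units with nm23-H1, 1132 with nm23-H2 and 1519 with vector. The NME2 probe set, which the annotation also gives to the read-through gene NME1-NME2, had 2323 units with nm23-H1, 4845 with nm23-H2 and 2272 with vector. Signals under a floor of 28.3 units were set to it for differences, and a gene counted as measured when 1 or more arrays exceeded it. Squamous epithelial markers were above the floor on each array for all 8 genes that could be measured, and KRT14, KRT5 and SFN were the brightest. Of 12 leukocyte marker genes, 7 were above the floor with nm23-H1, 2 with nm23-H2 and 4 with vector, with highest signals of 58.0, 31.2 and 55.5 units and summed signals of 349, 173 and 289.8 units. PTPRC, the pan-leukocyte gene encoding CD45, was listed at 2.67, 3.26 and 8.74 units, below the floor on all 3 arrays.

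MHC class I molecules show peptides from inside the cell to CD8 T cells. The proteasome cuts proteins into peptides, the TAP1-TAP2 transporter moves them into the endoplasmic reticulum, and tapasin, the product of TAPBP, holds empty class I molecules at the transporter until a peptide binds. A class I molecule pairs a heavy chain (HLA-B, HLA-C, HLA-E or HLA-F here) with the light chain beta-2-microglobulin, encoded by B2M. The system is known to respond to interferons and to NF-kB, and epithelial tumours often carry less of it at the cell surface. CD74, the invariant chain, serves class II molecules, which are usually found on professional antigen-presenting cells.

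The promoters of these genes are shown because many members differed in the same direction in 1 transfectant, and because textbook control elements of the class I system can be read in them. RefSeq windows (GRCh38.p14) running from 250 bases before the transcript start to 50 bases after it were found for 9 of the 10 genes, HLA-E being the other one. Capitals mark matches, on either strand, to 4 motifs. GGG, any 2 bases, TT, any base and CC is an NF-kB type site. GAAA, any 2 bases and GAAA is the repeat of an interferon-stimulated response element. CCAATCAG holds a CCAAT box, and TGACG is the core of a cyclic AMP response element. Neighbouring matches that overlap run together in capitals. HLA-B (chr6:31357130-31357429, minus strand) and HLA-C (chr6:31272043-31272342, minus strand) are classical heavy chain genes, HLA-F (chr6:29723184-29723483, plus strand) is a non-classical one, and B2M (chr15:44711267-44711566, plus strand), TAPBP (chr6:33314029-33314328, minus strand) and TAP1 (chr6:32853655-32853954, minus strand) encode their partners.
HLA-B: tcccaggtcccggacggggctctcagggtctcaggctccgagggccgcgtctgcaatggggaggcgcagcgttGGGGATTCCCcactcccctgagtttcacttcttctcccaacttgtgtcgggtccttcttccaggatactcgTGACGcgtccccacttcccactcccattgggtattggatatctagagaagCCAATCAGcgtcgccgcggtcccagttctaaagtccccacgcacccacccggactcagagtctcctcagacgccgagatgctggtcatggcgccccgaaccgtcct
HLA-C: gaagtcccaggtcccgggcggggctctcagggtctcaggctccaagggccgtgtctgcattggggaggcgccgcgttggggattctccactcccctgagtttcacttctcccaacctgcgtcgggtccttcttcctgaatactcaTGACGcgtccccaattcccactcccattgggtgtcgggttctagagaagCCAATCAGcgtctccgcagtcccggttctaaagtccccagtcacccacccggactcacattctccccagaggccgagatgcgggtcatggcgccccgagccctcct
HLA-F: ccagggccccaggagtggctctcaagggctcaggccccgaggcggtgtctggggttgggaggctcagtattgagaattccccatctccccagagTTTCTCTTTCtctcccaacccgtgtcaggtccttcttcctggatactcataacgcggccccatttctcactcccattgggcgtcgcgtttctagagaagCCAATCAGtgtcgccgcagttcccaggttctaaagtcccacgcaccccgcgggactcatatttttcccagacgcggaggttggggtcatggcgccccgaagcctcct
B2M: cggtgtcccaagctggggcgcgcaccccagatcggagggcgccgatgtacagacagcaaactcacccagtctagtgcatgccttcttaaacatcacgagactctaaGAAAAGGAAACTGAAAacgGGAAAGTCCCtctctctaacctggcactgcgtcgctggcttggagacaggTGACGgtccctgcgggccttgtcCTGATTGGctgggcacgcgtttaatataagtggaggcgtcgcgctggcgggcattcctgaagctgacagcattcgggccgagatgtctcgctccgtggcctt
TAPBP: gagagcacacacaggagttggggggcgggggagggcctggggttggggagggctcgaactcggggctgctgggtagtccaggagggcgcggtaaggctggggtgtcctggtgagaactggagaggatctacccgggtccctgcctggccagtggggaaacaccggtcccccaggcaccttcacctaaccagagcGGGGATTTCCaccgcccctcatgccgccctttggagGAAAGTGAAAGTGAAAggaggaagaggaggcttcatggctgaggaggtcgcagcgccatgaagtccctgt
TAP1: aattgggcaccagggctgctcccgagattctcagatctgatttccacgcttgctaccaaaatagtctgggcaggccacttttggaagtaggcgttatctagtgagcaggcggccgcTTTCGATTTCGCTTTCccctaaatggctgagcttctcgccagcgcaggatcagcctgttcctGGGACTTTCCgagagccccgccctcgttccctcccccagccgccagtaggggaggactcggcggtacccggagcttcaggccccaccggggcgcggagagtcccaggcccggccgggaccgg

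The NF-kB letters were found in the windows of 5 of the 9 genes (HLA-B, B2M, TAP1, TAPBP and CD74), against 5.68% of all 35116 promoter windows. The interferon letters were found in 5 of 9 (HLA-F, B2M, TAP1, TAP2 and TAPBP), against 3.57% of all windows. The CCAATCAG letters were found in 4 of 9 (HLA-B, HLA-C, HLA-F and B2M), against 3.97%. The TGACG letters were found in 5 of 9 (HLA-B, HLA-C, B2M, TAP2 and PSMB9), against 24.6%. In HLA-B the NF-kB letters GGGGATTCCC began 177 bases before the start and the CCAATCAG letters 56 bases before it. The HLA-C and HLA-F windows held CCAATCAG 56 and 57 bases before the start and no match to the NF-kB letters. TAPBP held its NF-kB match GGGGATTTCC 56 bases before the start and an overlapping pair of GAAAGTGAAA matches beginning 20 and 14 bases before it, whereas the match in CD74 lay 34 bases after the start. The motifs were chosen as textbook elements of the class I system, so their excess over all windows is no independent finding. Only exact strings were matched, and looser forms were not counted. A match is a string of letters, and none was measured here.

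The 23 probe sets ranged from below the floor to the brightest, HLA-C. Values are MAS5 signals scaled to a common trimmed mean, and a value below the floor of 28.3 signal units, the median of all scaled values, was set to it before log2 was taken. A probe set counted as measured when 1 or more arrays exceeded the floor, which held for 21 of the 23 and for 12989 of all 22283. One probe set of TAP2 and one of TAPBP were below the floor on all 3 arrays, with highest signals of 6.87 and 6.05 units, and gave no difference. The annotation gave each of the 23 a single gene, but 11 of them, all for HLA genes, end in _x_at, the manufacturer's mark for probes that may also bind related transcripts. The HLA-B and HLA-C probe sets were all of this kind, so signal from near-identical HLA genes cannot be separated in them.

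**Figure D1:**
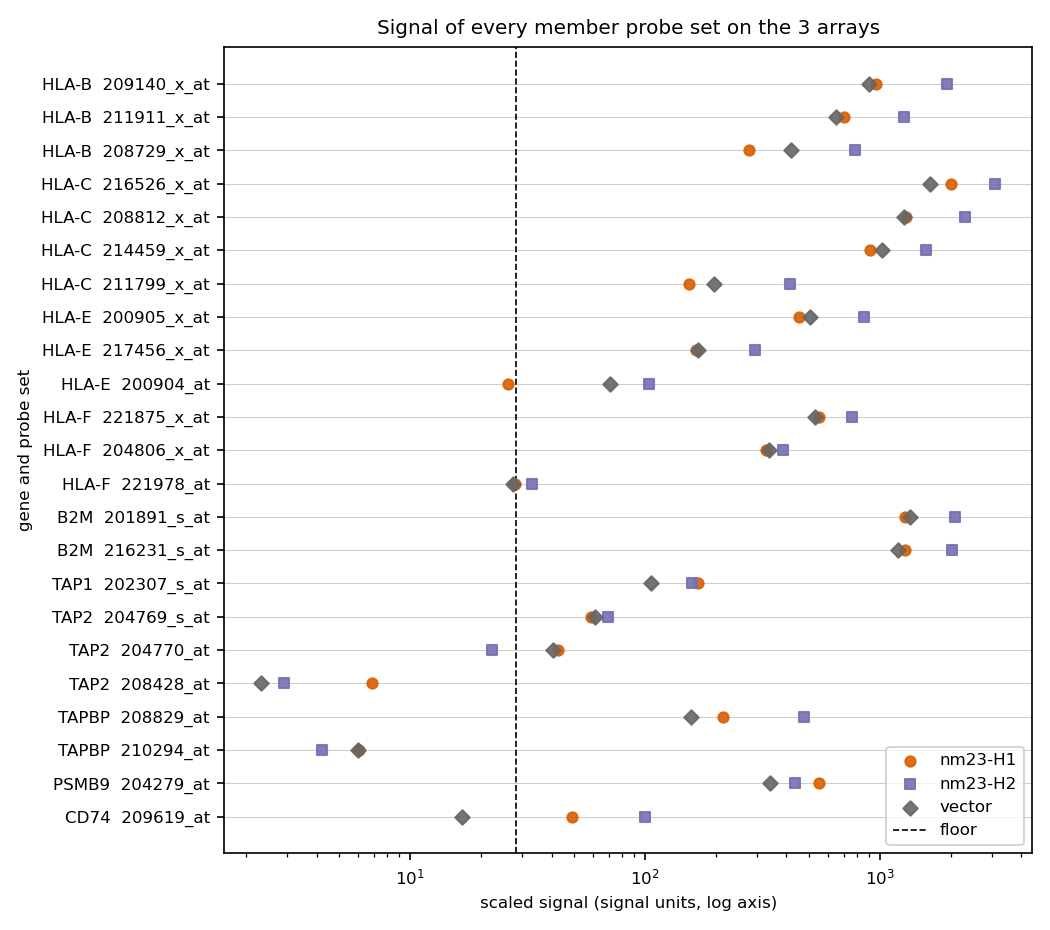
Scaled signal (log axis, signal units) of each of the 23 probe sets of the 10 genes on the nm23-H1 array (circles), the nm23-H2 array (squares) and the vector array (diamonds), with the floor of 28.3 units as a dashed line. The nm23-H2 squares lie right of the vector diamonds for all 13 heavy chain probe sets, while the nm23-H1 circles lie close to the vector diamonds for most of them.

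On the 12 HLA probe sets above the floor with vector, heavy chain transcripts were all higher with nm23-H2 than with vector. The share over all measured probe sets was 40.9%. That share also covers dim probe sets and those at the floor with vector, so it is not matched to the 12. Of the 12, 11 were higher by more than the probe error defined below, against 19.3% of all measured probe sets. Probe sets of related HLA genes may share signal, so the 12 are not separate measurements. The other one of the 13, of HLA-F, was above the floor with nm23-H2 only, so the floor fixed the sign of its difference. HLA-B, a classical heavy chain gene, gave 966 signal units with nm23-H1, 1921 with nm23-H2 and 901 with vector by its brightest probe set (209140_x_at). Its second probe set (211911_x_at) gave 706, 1259.6 and 648 units, and its dimmest (208729_x_at) 277, 783 and 419.6 units. All 3 were highest on the nm23-H2 array, by 1.09, 0.96 and 0.90 above vector on the log2 scale (2.13-fold, 1.94-fold and 1.87-fold). With nm23-H1 the first and second probe sets differed from vector by 0.10 and 0.12, but the dimmest was lower (log2 difference of -0.60), so the HLA-B probe sets disagreed on that array.

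HLA-C, the other classical heavy chain gene among the members, had 4 probe sets. The brightest (216526_x_at) gave 1998 signal units with nm23-H1, 3096 with nm23-H2 and 1628 with vector. The next (208812_x_at) gave 1292, 2306 and 1269 units on the same arrays. The dimmer pair (214459_x_at and 211799_x_at) gave 908, 1568 and 1019 units, and 154, 413 and 196 units. The nm23-H2 array was again the highest for each, with log2 differences from vector of 0.93, 0.86, 0.62 and 1.07, the last being 2.11-fold, or 0.99 on the log2 scale with arrays scaled to a common median. The nm23-H1 differences from vector ran in both directions, at 0.30, 0.03, -0.17 and -0.35.

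HLA-E, which presents signal peptides of other class I chains to natural killer cells, was split between its probe sets. The brighter pair (200905_x_at and 217456_x_at) gave 452 and 165 signal units with nm23-H1, 854 and 295 with nm23-H2, and 503 and 168 with vector. These were 0.76 and 0.81 higher with nm23-H2 than with vector (log2), and differed by -0.15 and -0.03 with nm23-H1. The dimmest probe set (200904_at), the only HLA-E one without the _x_at mark, gave 26.2, 104.0 and 71.0 units. It was 0.55 higher with nm23-H2, and with nm23-H1 it was at the floor, lower than vector by at least 2.50-fold. That lower value rested on 1 dim probe set, and the difference was -0.10 under a floor set at the 70th percentile and -0.50 as the mean over the gene's probe sets.

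HLA-F, a non-classical heavy chain gene, showed the smallest nm23-H2 differences of the heavy chains. Its probe sets gave 549, 760.4 and 529.7 signal units (221875_x_at), 328, 387 and 336 units (204806_x_at), and 28.1, 33.1 and 27.5 units (221978_at) with nm23-H1, nm23-H2 and vector. The nm23-H2 array was above vector by 0.52, 0.21 and 0.23 (log2), the last against a vector value at the floor, and nm23-H1 differed from vector by 0.05, -0.03 and 0. HLA-F-AS1, the antisense transcript of the locus with a probe set of its own, gave 134, 70.6 and 199.9 units and had differences from vector of -0.58 with nm23-H1 and -1.50 with nm23-H2.

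The light chain transcript was also higher in the nm23-H2 cells. B2M gave 1281 signal units with nm23-H1, 2083 with nm23-H2 and 1337 with vector by 1 probe set (201891_s_at), and 1282, 2025 and 1192 units by the other (216231_s_at). The nm23-H2 differences from vector were 0.64 and 0.76 (log2), and the nm23-H1 differences -0.06 and 0.11. Both probe sets were highest with nm23-H2, and neither has the _x_at mark.

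TAP1 and PSMB9 signals were higher than vector in both transfectants, and PSMB9 was highest with nm23-H1. TAP1, a subunit of the peptide transporter, gave 168 signal units with nm23-H1, 159 with nm23-H2 and 106 with vector, which was 0.67 and 0.58 above vector (log2). Which transfectant had more TAP1 turned with the scaling, nm23-H1 minus nm23-H2 being 0.08 here and -0.14 with the values as deposited. PSMB9, the immunoproteasome subunit that replaces PSMB6, gave 551, 433 and 342 units, which was 0.69 and 0.34 above vector. The nm23-H2 difference of PSMB9 lay within the probe error defined below, 0.35 for that comparison. For PSMB9, nm23-H1 minus nm23-H2 was 0.35 here and 0.13 with the values as deposited, within the probe error of 0.38. TAP1 and PSMB9 lie head to head on chromosome 6, and their promoter windows overlap by 13 bases. TAP2, the other transporter subunit, gave 59.1, 69.5 and 61.2 units by its brightest probe set (204769_s_at), within 0.18 of vector on both arrays, and its second probe set (204770_at) gave 42.6, 22.4 and 40.7 units, at the floor with nm23-H2.

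TAPBP, encoding tapasin, differed more from vector with nm23-H2 than any heavy chain probe set. Its probe set above the floor gave 214 signal units with nm23-H1, 477 with nm23-H2 and 157 with vector. It was 3.04-fold higher with nm23-H2 (1.60 on the log2 scale) and 1.36-fold higher with nm23-H1 (0.45) than with vector. With the mean of its probe sets, one of which is at the floor throughout, the nm23-H2 difference was 0.80.

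CD74, the class II invariant chain, had the largest nm23-H2 difference among the members at a low level. It gave 48.9 signal units with nm23-H1, 99.9 with nm23-H2 and 16.6 with vector, where it was below the floor, so its folds are bounds of at least 1.73 with nm23-H1 and at least 3.53 with nm23-H2. A floor set at the 70th percentile gave differences of 0 with nm23-H1 and 0.59 with nm23-H2 (log2), and one set at the 25th percentile gave 1.56 and 2.59. HLA-DRA, a class II chain that CD74 binds, gave 22.5, 41.1 and 18.8 units and was above the floor on the nm23-H2 array only. Leukocytes carry class II transcripts, and of the 12 leukocyte markers 7 were above the floor with nm23-H1, 2 with nm23-H2 and 4 with vector. ITGAM and CD2 were above it on all 3 arrays, CD14, CSF1R, CD3E, CD3D and AIF1 on some, and PTPRC, CD163, MS4A1, CD79A and LYZ on none. Their part in the CD74 result was not tested.

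Counted over probe sets, 4 of the 21 measured were at least 2-fold higher with nm23-H2 than with vector and 0 at least 2-fold lower, against 3.52% higher and 3.32% lower of all 12989. The 4 were 1 probe set each of HLA-B, HLA-C, TAPBP and CD74. A probe error was taken from how far the brightest 2 probe sets of a gene disagreed, and its SD was 0.32 (log2) for nm23-H1 and 0.35 for nm23-H2, each relative to vector. It does not cover cultures, clones or hybridisations. Beyond this probe error, 16 of 21 were higher with nm23-H2 and 1, of TAP2, was lower, against 19.3% and 25.7% of all measured probe sets. Among probe sets reaching 66.2 units, the 70th percentile of all values, on their brightest array, 16 of 19 member probe sets and 24% of all were higher by more than the probe error. Those of CD74 and TAP2 among the 19 reached 66.2 units with nm23-H2 only, so that array helped to select them. The TAP2 probe set that was lower did not reach it and dropped out. The median difference of the 21 was 0.76, against -0.04 over all measured probe sets. Probe sets of 1 gene, and those of related HLA genes, are not independent of each other.

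For nm23-H1 relative to vector, 0 of the 21 probe sets were at least 2-fold higher and 1, of HLA-E, at least 2-fold lower, against 2.16% higher and 1.69% lower of all measured probe sets. Beyond the probe error, 4 were higher (TAP1, PSMB9, TAPBP and CD74) and 3 lower (of HLA-B, HLA-C and HLA-E), against 21% and 18.3% of all. These shares are near the background. The median over the 21 was 0.03, and over the 13 heavy chain probe sets it was -0.03 with nm23-H1 and 0.81 with nm23-H2. Both comparisons use the same vector array.

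**Figure D2:**
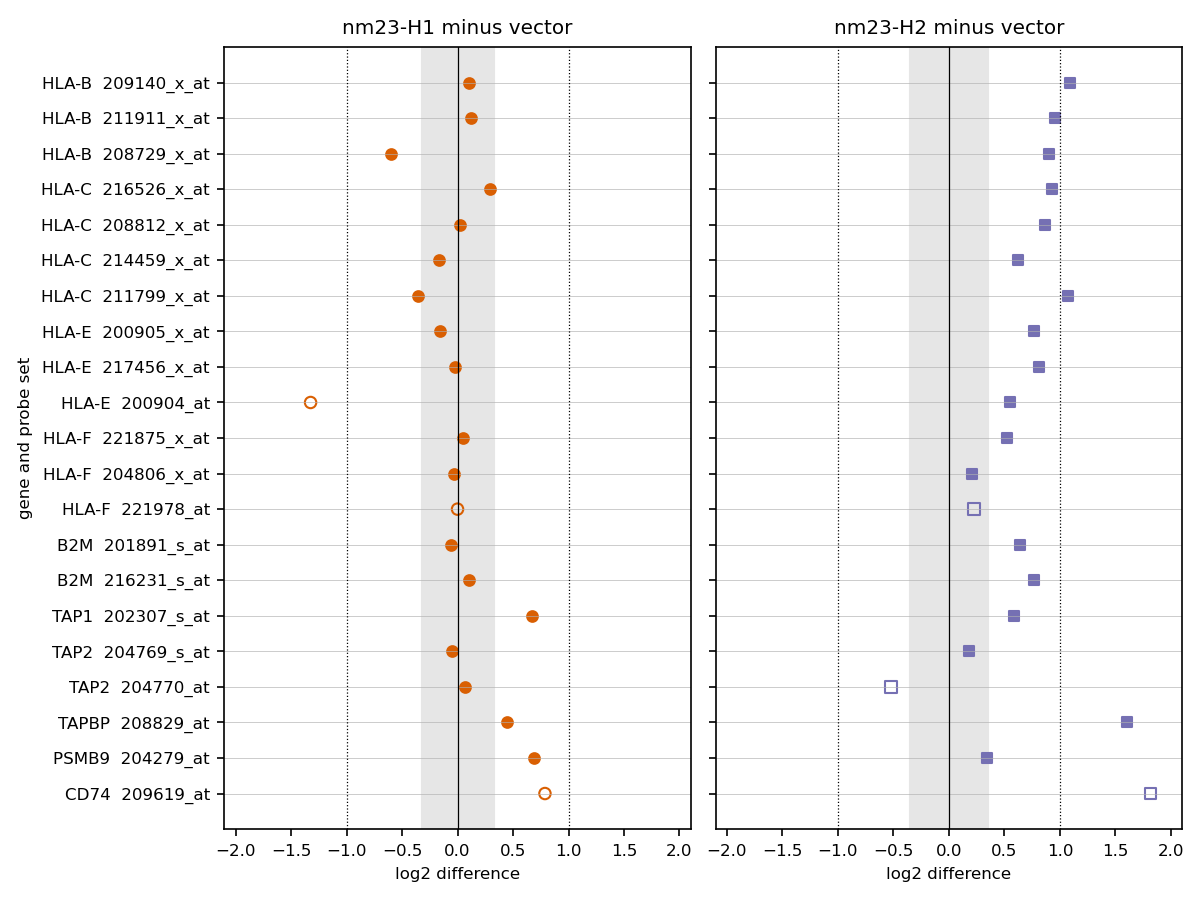
Log2 difference from vector of the 21 measured probe sets with nm23-H1 (left) and nm23-H2 (right). The grey band is 1 probe error on either side of 0, dotted lines mark 2-fold, and open symbols mark probe sets with at least 1 of the compared arrays at the floor. With nm23-H2 16 of 21 symbols lie right of the band, and with nm23-H1 4 do.

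By 1 probe set for each gene, with those not ending in _x_at preferred, 3 of the 10 genes were at least 2-fold higher with nm23-H2 than with vector (HLA-B, TAPBP and CD74) and 0 lower, against 3.59% and 3.61% of 7986 measured genes. With nm23-H1, 0 were at least 2-fold higher and 1 (HLA-E) lower, against 2.14% and 1.73%. The gene medians were 0.20 for nm23-H1 and 0.61 for nm23-H2 relative to vector, against 0 and -0.06 over all genes. With the values as deposited, unscaled, all genes shifted by 0.17 with nm23-H2, and the split of higher to lower genes was 634 to 107 in place of 287 to 288. It was 245 to 380 with a common median. For nm23-H1 it was 209 to 93 as deposited in place of 171 to 138. The members stood 0.67 above the all-gene median with nm23-H2 after scaling and 0.77 above it as deposited.

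**Figure D3:**
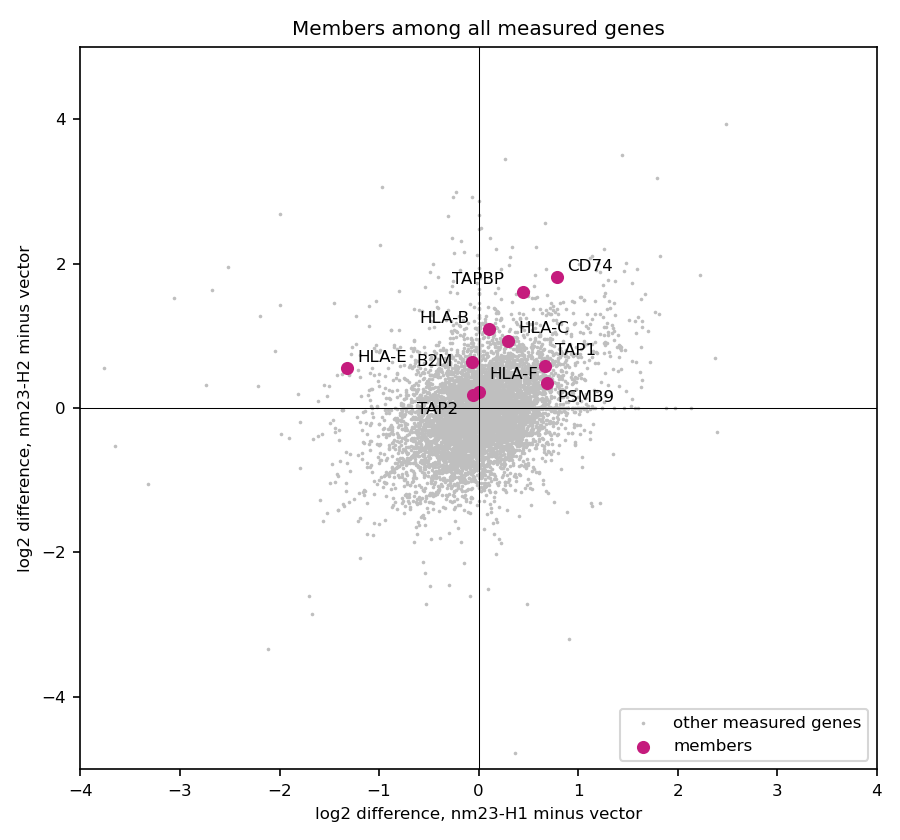
Log2 difference of each of the 7986 measured genes with nm23-H1 (horizontal axis) and nm23-H2 (vertical axis), both relative to the same vector array, with the 10 members in colour. On the nm23-H2 axis the members run from 0.18 (TAP2) to 1.82 (CD74), with vector at the floor for HLA-F and CD74, and on the nm23-H1 axis they run from -1.32 (HLA-E) to 0.79 (CD74).

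Set directly against nm23-H2, the nm23-H1 array was lower on most members. Of the 21 probe sets, 5 were lower with nm23-H1 by 2-fold or more and 0 higher, against 3.79% lower and 3.6% higher of all measured probe sets. Those 5 were of HLA-B (2.82-fold), HLA-C (2.69-fold), HLA-E (at least 3.67-fold), TAPBP (2.23-fold) and CD74 (2.04-fold). Beyond the probe error of 0.38 for this comparison, 15 were lower and 1, of TAP2, higher, against 17.7% and 26.9% of all. TAP1 and PSMB9 were 0.08 and 0.35 higher with nm23-H1 (log2), within that error. By 1 probe set for each gene, 3 of the 10 were lower by 2-fold (HLA-E, TAPBP and CD74) and 0 higher, against 3.81% lower and 3.76% higher of all genes. CD74 was under 2-fold with a common median (-0.93), with 16 added in place of the floor (-0.84) and under a floor set at the 70th percentile (-0.59), HLA-E under the same higher floor (-0.65), and TAPBP as the mean over its probe sets (-0.58). The split of all genes moved with the scaling, at 300 higher to 304 lower, 171 to 499 as deposited, 404 to 256 with a common median and 234 to 339 with quantile normalization.

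The genes whose pair of differences from vector lay nearest to the median pair of the members (0.20 and 0.61) were CCT3, REXO2, PPP4C, RGL2 and SMPD2, at distances of 0.0056 to 0.036 on the log2 scale. Of 5024 genes bright enough to be compared, 45 lay within 0.1 of the same pair, and likeness over 2 differences from 3 arrays is a weak measure.

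Other class I heavy chain genes had a median difference of 0.04 with nm23-H1 and 0.51 with nm23-H2 over 5 measured genes, with 0 at 2-fold. The nm23-H2 median was -0.39 under a floor set at the 25th percentile, 0.10 as the mean over probe sets and 0.03 from probe sets specific by name, so it had no stable direction. HLA-G and the pseudogene HLA-J, measured only by _x_at probe sets, were 0.76 and 0.97 higher with nm23-H2 than with vector, and their signals may include those of HLA-B and HLA-C. The other HLA-G probe sets gave 0.20, 0.93 and 1.17. MR1, which presents vitamin B metabolites, gave 68.0, 129 and 90.7 units with nm23-H1, nm23-H2 and vector. CD1A and HFE were the other measured genes, and their nm23-H2 differences were -0.45 and -0.11.

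Among 8 measured genes of the peptide loading complex and its chaperones, 3 were at least 2-fold higher with nm23-H2 and 0 lower. Of all measured genes, 3.59% were higher and 3.61% lower. The list's nm23-H2 median was 0.58 and ran from 0.32 to 1.11 over the alternatives. TAPBPL, which encodes the tapasin relative TAPBPR, was at least 2.28-fold higher with nm23-H2 and at least 1.78-fold with nm23-H1, giving 50.5, 64.7 and 4.65 units. Its other probe set was at least 2.07-fold higher with nm23-H2 and at the floor on the nm23-H1 and vector arrays. CALR, encoding the chaperone calreticulin, was 2.16-fold higher with nm23-H2 by the probe set used, but 1.21-fold and 1.34-fold by its brighter pair. HSPA5, the general chaperone BiP, was 5.11-fold higher with nm23-H2. CANX, encoding calnexin, was lower (log2 difference of -0.49), and PDIA3, the thiol oxidoreductase of the loading complex, 0.32 higher. With nm23-H1 the list's median was 0.06 and 0 of 8 differed by 2-fold.

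No gene of the proteasome and peptidase list differed by 2-fold from vector in either transfectant (0 of 14), and the medians were 0 with nm23-H1 and 0.26 with nm23-H2. The nm23-H2 median ran from 0.13 to 0.59 over the alternatives. Of the immunoproteasome subunits besides PSMB9, PSMB8 had differences of 0.20 with nm23-H1 and 0.48 with nm23-H2, and PSMB10 of 0.60 and 0.92. The standard subunits that PSMB8, PSMB9 and PSMB10 replace, PSMB5, PSMB6 and PSMB7, had differences of -0.59, -0.12 and -0.04 with nm23-H1 and -0.11, 0.05 and 0.21 with nm23-H2. IDE, the insulin-degrading enzyme, and LAP3, an aminopeptidase, had differences of -0.72 with nm23-H1 and -0.30 with nm23-H2 (IDE), and 0.38 with nm23-H1 and 0.62 with nm23-H2 (LAP3). PSME1, a subunit of the proteasome activator PA28, was 0.62 higher with nm23-H2 and 0.15 with nm23-H1.

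Other class II pathway genes lay on both sides of vector with nm23-H2, 6 above it and 10 below. At 2-fold, 0 of the 16 measured passed in either direction with nm23-H2 (median -0.07, or 0.25 with the values as deposited). With nm23-H1 only 1 did, in the lower direction (median 0.00), against 1.73% lower of all measured genes. This gene was CTSV, a lysosomal cathepsin, at 101, 157 and 215 units with nm23-H1, nm23-H2 and vector. HLA-DMA, a peptide editor of class II molecules, was 0.58 and 0.65 higher with nm23-H1 and nm23-H2 than with vector. CIITA, the class II transactivator, gave 39.9, 29.5 and 35.2 units.

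Of 20 measured regulators of MHC gene transcription, 3 were at least 2-fold higher with nm23-H2 and 0 lower. Of all measured genes, 3.59% were higher and 3.61% lower. The list's nm23-H2 median was 0.18, from 0.0048 to 0.40 over the alternatives. With nm23-H1 none passed 2-fold (median 0.17). The 3 higher with nm23-H2 were RELB, an NF-kB subunit (3.80-fold), NFKBIA, the NF-kB inhibitor that NF-kB itself induces (3.21-fold), and SOCS1. SOCS1, an inhibitor of interferon signalling, was at least 2.45-fold higher, but -0.16 on the log2 scale by another probe set. NFKBIA gave 289, 1345 and 419 units on the nm23-H1, nm23-H2 and vector arrays. The other NF-kB subunits of the list, NFKB1, NFKB2 and RELA, differed from vector by 0.32, -0.02 and -0.09 with nm23-H2 (log2). A part of NF-kB in the members' differences was not tested. IRF1, the interferon-induced activator of class I genes, differed by 0.24 and 0.21 from vector with nm23-H1 and nm23-H2. RFX5, a factor of the X box, was 0.80 higher with nm23-H1 and differed by -0.36 with nm23-H2.

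Interferon response genes outside antigen presentation were mixed. Of 34 measured, 4 were at least 2-fold higher with nm23-H2 and 3 lower, against 3.59% and 3.61% of all measured genes. The nm23-H2 median was 0.01, or 0.20 with the values as deposited. With nm23-H1, 2 were higher and 0 lower (median 0.10), against 2.14% and 1.73% of all measured genes. The higher ones with nm23-H2 were IFI27 (4.70-fold), IRF9, part of the factor that type I interferon activates (2.63-fold), IRF7 (2.47-fold) and IFI6 (at least 2.28-fold). The lower ones were the chemokine gene CXCL10 (at least 2.22-fold), BST2, encoding tetherin (2.21-fold), and OASL (2.16-fold). Second probe sets of IRF9 and OASL gave smaller nm23-H2 differences, 0.22 and -0.36 (log2). With nm23-H1 the higher ones were IRF7 (2.33-fold) and USP18 (2.13-fold).

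Among 14 measured ligands of natural killer and T cells, MICA, a stress ligand of the receptor NKG2D, was 2.04-fold higher with nm23-H2 than with vector and 1.72-fold higher with nm23-H1. Its other probe set gave 0.66 with nm23-H1 and 0.70 with nm23-H2 (log2). CD58, a ligand of CD2, was at least 2.03-fold lower with nm23-H2 by the probe set used, and differed by -0.08 by another probe set. No other gene of this list passed 2-fold against vector in either transfectant. With nm23-H2 that made 1 higher and 1 lower of 14, against 3.59% higher and 3.61% lower of all measured genes. The medians were 0.05 with nm23-H1 and -0.17 with nm23-H2, the second being 0.10 with the values as deposited.

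Of the members, 8 lie within or at the ends of the stretch of chromosome 6 that runs from HLA-F to TAPBP, so the other genes of that stretch were set beside them. Its 62 measured genes outside the members and the lists above had a median of 0.08 with nm23-H2 and 0.06 with nm23-H1. The nm23-H2 median was 0.37 with the values as deposited and 0 with a common median. With nm23-H2, 6 passed 2-fold upward and HLA-F-AS1 alone downward, against 3.59% higher and 3.61% lower of all measured genes. The higher ones were IER3, an NF-kB target (3.99-fold), CFB, complement factor B (at least 3.95-fold), HCP5 (at least 2.32-fold), CCHCR1 (2.26-fold, but 1.31-fold to 1.48-fold by 3 other probe sets), the zinc transporter gene SLC39A7 (log2 difference of 1.07) and the valyl-tRNA synthetase gene VARS1 (2.03-fold, but -0.41 on the log2 scale by another probe set). With nm23-H1, GPSM3 was at least 2.41-fold higher, with -0.49 (log2) by another probe set, and LY6G6C was 2.02-fold lower. That made 1 higher and 1 lower of the 62, against 2.14% higher and 1.73% lower of all measured genes. The members outside chromosome 6, B2M on chromosome 15 and CD74 on chromosome 5, were also higher with nm23-H2. For CD74 the vector value was at the floor. A part of the chromosome 6 region in the members' differences was not tested.

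**Figure D4:**
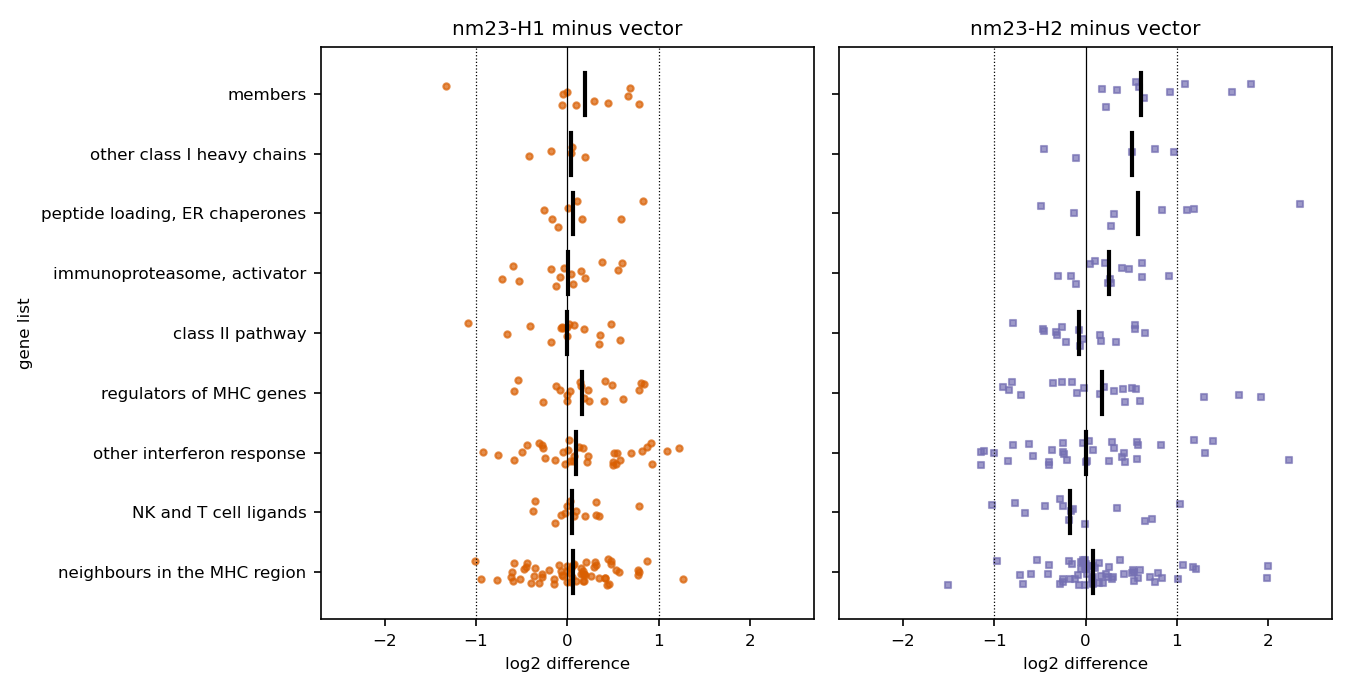
Log2 difference from vector of each measured gene, by list, with nm23-H1 (left, circles) and nm23-H2 (right, squares). Black bars are list medians and dotted lines mark 2-fold. The medians of the members (0.61), the loading complex list (0.58) and the other heavy chains (0.51) lie farthest to the right with nm23-H2 (the last is -0.39 under a lower floor), and that of the chromosome 6 neighbours is 0.08.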

How the data were processed

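The authors deposited 1 linear intensity for each probe set and array, made with MAS5 per the submitters' processing notes. The version, the scaling target and detection calls are not given in the sources used here, and the platform annotation gives 1 symbol to 19071 probe sets, several to 1043 and none to 2169. Arrays were multiplied (1.03 for nm23-H1, 0.881 for nm23-H2, 1.11 for vector) to a common mean of the values between the 2nd and 98th percentiles, set to the floor of 28.3 units (the 50th percentile), and put on the log2 scale. For a gene, the single-symbol probe set not ending in _x_at, then the brightest, was used. With 1 array a group there was no test, and a difference was called at 2-fold. Where one of the arrays is at the floor, the fold is a bound. The number of arrays limits the precision.

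The members, gene lists and promoter motifs were drawn from general knowledge, with earlier results of these data known. Named were all members, NME1 and NME2, list genes and chromosome 6 neighbours at 2-fold against vector, for a list with none up to 4 with the largest difference, and the 5 genes nearest to the members' median pair. HFE, PSMB5, PSMB6, PSMB7, PSMB8, CANX, PDIA3, HLA-DRA, HLA-DMA, CIITA, RFX5, IRF1, NFKB1, NFKB2 and RELA fall outside it and were chosen for their roles after their values were seen. Symbols, gene order and promoters came from RefSeq tables of GRCh38.p14. The steps were tested on simulated data. Alternatives were other scalings, floors, probe set choices and a 1.5-fold threshold. Python 3.11.15, numpy 2.4.6, pandas 2.3.3 and matplotlib 3.10.9 were used.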

Additional observations from a re-analysis of the deposited data

How the results depend on the processing

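The median of the member genes kept its sign in each comparison under all alternatives run, from 0.45 to 0.94 with nm23-H2 against vector, 0.01 to 0.31 with nm23-H1 against vector and -0.89 to -0.55 with nm23-H1 against nm23-H2. Relative to the all-gene median the nm23-H2 range was 0.51 to 0.77. Over all alternatives, 73 of 75 values of single member genes were above 0 with nm23-H2 against vector. The alternatives reuse the same genes and arrays, so these values are not independent of each other. The matching share over all genes was not computed. For HLA-F and CD74 the vector array was below the floor, where a difference cannot be under 0. Both of the values not above 0 were of TAP2, the lowest -0.52 with probe sets specific by name.

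Counts at 2-fold moved more. With the values as deposited, 11 member probe sets were higher with nm23-H2 than with vector and 11 lower with nm23-H1 than with nm23-H2, and genes overall numbered 634 higher and 107 lower with nm23-H2 against vector, and 171 higher and 499 lower with nm23-H1 against nm23-H2. With the common median the nm23-H1 against nm23-H2 split was 404 to 256. Under a floor set at the 25th percentile, 1 member gene and 1 probe set (CD74) were higher with nm23-H1 than with vector, and genes overall numbered 659 higher and 556 lower with nm23-H1 against vector, 636 and 989 with nm23-H2 against vector, and 1098 and 649 with nm23-H1 against nm23-H2. Under a floor set at the 70th percentile, 0 member genes and 0 probe sets were lower with nm23-H1 than with vector, 1 member gene and 3 probe sets lower with nm23-H1 than with nm23-H2, and genes overall numbered 72 higher and 60 lower with nm23-H1 against vector, 112 lower with nm23-H2 against vector, and 114 higher and 192 lower with nm23-H1 against nm23-H2. Averaging each gene's probe sets left 0 member genes lower with nm23-H1 and 1 higher with nm23-H2 against vector (CD74), with HLA-B at 0.98. Probe sets specific by name, which cover fewer genes, gave 106 higher and 76 lower genes for nm23-H1 against vector, 166 and 167 for nm23-H2 against vector, and 175 and 171 for nm23-H1 against nm23-H2. At 1.5-fold, 3 member genes and 3 probe sets were higher and 2 probe sets lower with nm23-H1 against vector, 5 genes and 13 probe sets higher with nm23-H2 against vector, and 6 genes and 14 probe sets lower and 1 probe set higher with nm23-H1 against nm23-H2, where genes overall numbered 689 and 601, 844 and 1138, and 1299 and 847. Leaving out probe sets ending in _x_at, chosen after seeing the data, left 2 member probe sets higher with nm23-H2 against vector and 3 lower with nm23-H1 against nm23-H2. Leaving out probe sets of several genes changed nothing, since no member probe set had several symbols. No share over all measured probe sets was computed under these alternatives, so the member probe set counts have no background beside them. The threshold, the floor and the number of genes differ by construction, and for the scalings the cause was not tested. No paired analysis was possible because each group has 1 array.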
